A study of Mus musculus with 2 samples.

Results

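Aminoacyl-tRNA synthetases were examined in FAPs (fibro-adipogenic progenitors), a mesenchymal population of muscle that can turn into fat cells. The members were taken by gene symbol from the deposited expression tables: a single amino acid letter followed by ars, ars1 or ars2, together with Farsa, Farsb, Eprs and Tarsl2. This rule found 38 of the 44291 listed genes, and it used no measured value. Symbols that end in ars2 mark the 17 enzymes of the mitochondrion, and the other 21 are called cytosolic here. The FAPs were primary cells of wild-type (WT) mice, sorted from digested hind limb muscle. One culture received platelet-rich plasma (PRP) and the other received vehicle as control, and the labels give adipogenic differentiation for both, in a medium with insulin at 10 μg/ml, dexamethasone at 0.25 μM, IBMX at 0.5 mM and fetal bovine serum at 20%. The labels call the treatment PRP, whereas the study's text speaks of exosomes that had been prepared from young donors' PRP; the label is used here. The study bought C57BL/6 mice at 6 to 8 weeks of age. The study's methods give an amount of exosomes for some of its cultures and do not tie it to these libraries. The number of mice behind each culture and the time of harvest were not given in the sources used here.

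Each group had 1 library, so every difference below is between 2 libraries and has no replicate check. The values are FPKM, reads scaled by exon length and by library depth. The exon lengths used here join all annotated exons of a gene, from 2447 bases for Hars to 18102 bases for Eprs. Such a length can exceed that of a single transcript, so levels of different genes compare only roughly. Reads assigned to genes numbered 40120843 with PRP and 34139741 in control. For all 38 members, FPKM and exon length gave whole reads in both libraries, from 50 reads for Pars2 in the control library to 68381 for Nars in the PRP library. The ratio of PRP to control FPKM is given with an exact 95% interval from these reads, which covers counting error only. A member is called higher or lower where this interval leaves out 1, which speaks of these libraries and not of the treatment. The FAP markers Pdgfra, Pdgfrb, Ly6a, Cd34, Dcn, Col1a1 and Thy1 were all expressed, and all 7 were lower in the PRP library (summed FPKM 435 against 628). Among genes that averaged at least 1 FPKM, 26.1% of the 12369 with an interval were lower, and 50.9% of all 13401 were above control. Macrophage markers summed to 10.3 and 10.6 FPKM and endothelial markers to 9.24 and 5.21 FPKM. Of the 6 adipocyte markers 4 were above control, among them Pparg (ratio 1.33, interval 1.15 to 1.53) and Fabp4 (1.21, 1.15 to 1.27), whereas Lpl was lower (67.4 against 83.3 FPKM), and their sums were 137 and 143 FPKM. Among the macrophage markers Cd68 had a ratio of 1.98 and Lyz2 of 0.648, and Ptprc, Adgre1 and C1qa were under 0.17 FPKM in both libraries. Myogenic markers summed to 6.47 and 7.15 FPKM with Pax7 and Myog at 0 in both libraries, and platelet and erythroid markers to 1.68 and 1.76 FPKM with Ppbp at 0. The part of these marker differences in the synthetase values was not tested.

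Each synthetase joins its amino acid to the matching tRNA with energy from ATP, which is the step that sets the genetic code in protein synthesis. The cytosolic enzymes feed the ribosomes that translate nuclear genes, and a separate set, also encoded in the nucleus and imported, serves the few proteins made inside mitochondria. Several cytosolic enzymes are held in the multi-synthetase complex, and many of their genes are textbook targets of ATF4, the transcription factor of the amino acid and integrated stress response. Gars and Kars have no ars2 partner because each gene makes both the cytosolic and the mitochondrial enzyme. Qars has none either, since mitochondria load glutamine tRNA with glutamate through EARS2 and then amidate it.

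Cytosolic synthetases were far more abundant than mitochondrial ones in both libraries. Their median was 30.4 FPKM with PRP and 27.3 FPKM in control, against 1.66 and 1.93 FPKM for the mitochondrial set. Summed over members, the cytosolic set held 1157 and 1046 FPKM and the mitochondrial set 61.0 and 51.4 FPKM. The cytosolic sum was thus 19.0-fold the mitochondrial sum with PRP and 20.3-fold in control. Nars, the asparagine enzyme, and Sars, the serine enzyme, together made up 47.1% and 46.4% of the FPKM of all 38 synthetases. The order of members by level was much the same in both libraries: 34 of the 38 moved by at most 2 ranks, and the largest move, of 8 ranks, was that of Lars2. Over the 38 members, Pearson's r between both libraries was 0.991 for log2 levels and Spearman's rho 0.984. These are correlations across genes, which are not independent replicates, and the libraries share these genes' lengths and base composition.

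**Figure D1:**
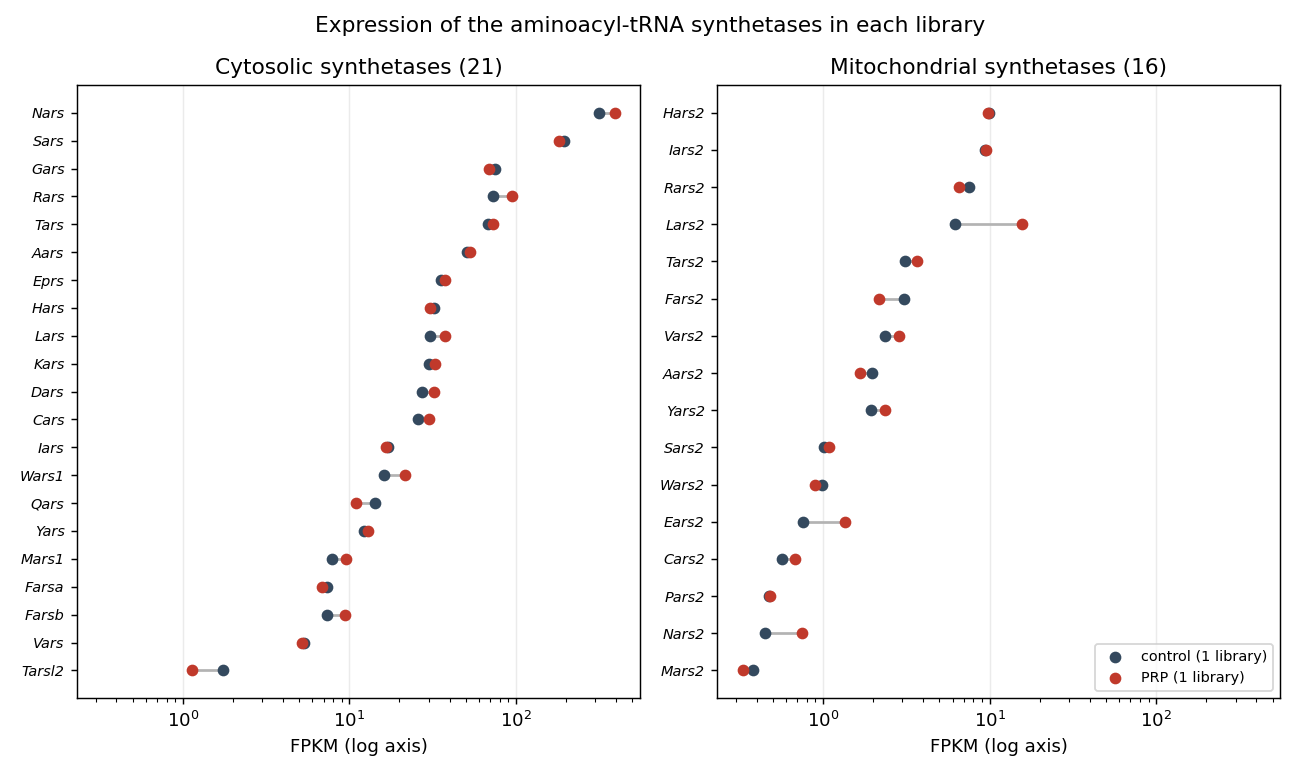
FPKM (log axis) of 37 of the 38 synthetases in the control library (dark points) and the PRP library (red points), with cytosolic enzymes on the left and mitochondrial enzymes on the right, ordered by the control value. Cytosolic genes run up to 391 FPKM and mitochondrial genes up to 15.8 FPKM, and the widest gap between both points is that of Lars2.

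The same held for each amino acid taken alone. In 14 of 14 pairs of a cytosolic and a mitochondrial enzyme the cytosolic gene had the higher FPKM in both libraries. The gap was widest for asparagine, where Nars exceeded Nars2 by 523-fold with PRP and by 699-fold in control. It was narrowest for isoleucine, where Iars exceeded Iars2 by 1.74-fold and 1.81-fold. Valine (Vars over Vars2, 1.81-fold and 2.28-fold) and histidine (Hars over Hars2, 3.10-fold and 3.24-fold) were also close. The leucine pair differed most between the libraries: Lars exceeded Lars2 by 4.90-fold in the control library and by 2.39-fold in the PRP library. The members of a pair moved in the same direction in 6 of the 14 pairs. Eprs, which fuses the glutamate and proline enzymes of the cytosol, exceeded its mitochondrial counterpart Ears2 by 27.9-fold with PRP and 47.1-fold in control, and its counterpart Pars2 by 78.0-fold and 75.3-fold.

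**Figure D2:**
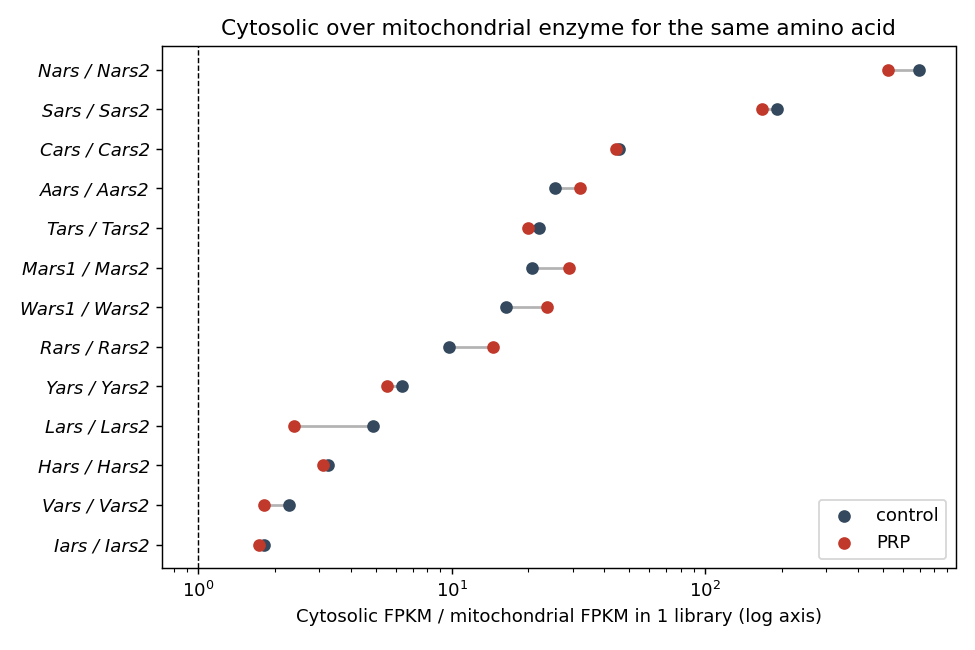
FPKM of the cytosolic gene divided by FPKM of the mitochondrial gene for the same amino acid (log axis), in the control library (dark) and the PRP library (red), for 13 of the 14 pairs. All points lie above 1, from 1.74 for Iars over Iars2 to 699 for Nars over Nars2, and the leucine pair falls from 4.90 in the control library to 2.39 in the PRP library.

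Between the libraries, the synthetases as a group differed little. Fold changes are differences of log2(FPKM + 1), PRP minus control, and were taken where both libraries averaged 1 FPKM or more, a scale that understates the change of low genes. All 21 cytosolic members passed this filter and so did 12 of the 17 mitochondrial members. The mitochondrial genes Wars2, Nars2, Cars2, Pars2 and Mars2 were below it. Of the 33 members tested, 20 were above their control value and 13 below it; among all 13401 genes tested, 50.9% were above. The median log2 fold change was 0.08 for the cytosolic set and 0.03 for the mitochondrial set, against 0.01 for all genes tested. One member, Lars2, passed 1.5-fold, which is 3.03% of those tested, where 10.7% of all genes did (6.15% of all genes higher and 4.57% lower). At a limit of 25% more in either library than in the other, 7 members passed (21.2%), where 30.3% of all genes did. No difference between the cytosolic and the mitochondrial set was tested, since genes are not replicates of a treatment.

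**Figure D3:**
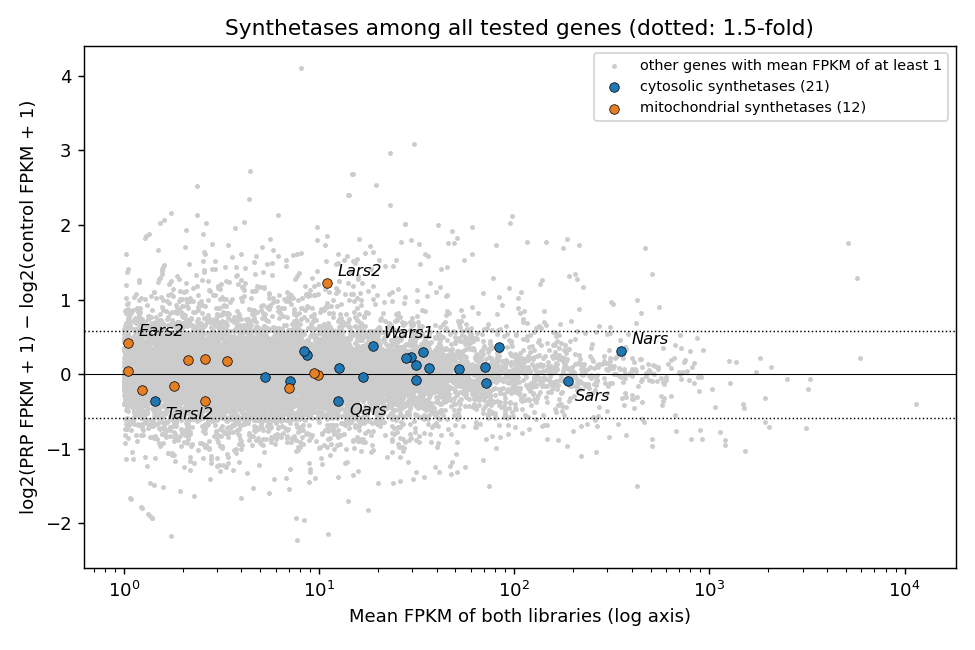
Log2 fold change of PRP over control on the log2(FPKM + 1) scale against the mean FPKM of both libraries (log axis), for the 21 cytosolic synthetases (blue) and the 12 tested mitochondrial synthetases (orange) among all other genes tested (grey). Most synthetases lie close to 0, and Lars2 alone lies outside the dotted lines that mark 1.5-fold.

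Counting intervals were narrower for the cytosolic set: the upper bound was 1.12 times the lower in the median cytosolic member and 1.68 times in the median mitochondrial member. Of the 21 cytosolic members, 12 had an interval above 1, 4 below 1, and 5 included 1. Of the 12 tested mitochondrial members, 4 lay above 1, 2 below, and 6 included 1. Among the 12369 tested genes with an interval, 26.1% lay above 1 and 26.1% below. Where the mean FPKM was at least 5, those shares were 31.5% and 32.4% of all genes, so a large part of the transcriptome at this depth had an interval that left out 1. With the 5 low mitochondrial genes added, 17 of the 38 members were higher, 6 lower, and 15 had an interval that included 1.

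Nars was the most abundant member, at 391 FPKM with PRP and 315 FPKM in control, from 68381 and 46773 reads. Its ratio was 1.24 (95% interval 1.22 to 1.26). Sars followed at 182 FPKM with PRP and 194 FPKM in control, and lay slightly the other way (ratio 0.937, interval 0.918 to 0.957). Nars lies on mouse chromosome 18 (64499647 to 64516652, minus strand) and Sars on chromosome 3 (108424865 to 108445209, minus strand), in the coordinates of GRCm38 (mm10). Their level ratio, Nars over Sars, was 2.15 with PRP and 1.62 in control.

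The highest ratio of a cytosolic member was that of Wars1, the tryptophan enzyme, which is known to be induced by interferon. Wars1 (ENSMUSG00000021266, chromosome 12, 108860030 to 108894174, minus strand) had 21.5 FPKM with PRP and 16.2 FPKM in control, a ratio of 1.32 (interval 1.22 to 1.44). Other interferon response genes moved further. All 11 tested genes of a list of 12 were above their control value (50.9% of all genes were), with a median log2 fold change of 1.46. The list was led by the ubiquitin-like modifier Isg15 (160 against 35.7 FPKM), the antiviral gene Ifit1 (25.3 against 6.53 FPKM) and the deconjugating protease Usp18 (28.4 against 7.96 FPKM). Rsad2 (2.82 against 0.392 FPKM) and Cxcl9 (2.56 against 0.466 FPKM), named after their values were seen, passed the filter on the mean through their PRP values. Their direction was thus fixed by passing it. The mitochondrial partner Wars2 had 0.901 and 0.990 FPKM, and its interval of 0.687 to 1.21 included 1.

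Among the enzymes of the multi-synthetase complex, 6 of 8 were higher, Qars was lower, and the interval of Iars included 1; of all tested genes with a mean of at least 5 FPKM, 31.5% had an interval above 1. The arginine enzyme Rars had 94.4 FPKM with PRP and 73.2 FPKM in control (ratio 1.29, interval 1.24 to 1.34). The leucine enzyme Lars had 37.6 and 30.4 FPKM (ratio 1.24, interval 1.18 to 1.30). The methionine enzyme Mars1 had 9.59 and 7.82 FPKM (ratio 1.23, interval 1.09 to 1.39). These were the members of the complex that stood highest. Dars (aspartate, ratio 1.18, interval from 1.11 up), Kars (lysine, 1.09, 1.04 to 1.16) and Eprs (1.06, 1.03 to 1.08) were above 1 by less. Qars, the glutamine enzyme (chromosome 9, 108507706 to 108515941, plus strand), had 10.9 FPKM with PRP and 14.2 FPKM in control, a ratio of 0.767 (interval 0.714 to 0.824). The isoleucine enzyme Iars had 16.5 and 17.0 FPKM, and its interval ran from 0.908 to 1.04. The median log2 fold change was 0.18 for the 8 enzymes in the complex and 0.07 for the 13 cytosolic members outside it, whose ranges overlapped (-0.35 to 0.36 in the complex, -0.36 to 0.38 outside it). Mars1 shares 1.99% of its exon length with the stress gene Ddit3 on the opposite strand, whose deposited entry had 279 and 151 FPKM. Whether reads were counted by strand was not given in the sources used here.

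The non-catalytic scaffold of the complex was measured by 3 genes. The p18 subunit gene Eef1e1 had 8.25 FPKM with PRP and 5.35 FPKM in control, a ratio of 1.54 (interval 1.33 to 1.78). Aimp2 had 8.06 and 7.23 FPKM, and its interval of 0.928 to 1.35 included 1. Aimp1 had 12.3 and 11.8 FPKM and no whole reads, so no interval is given.

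Cytosolic enzymes outside the complex went both ways. The phenylalanine enzyme is built of 2 kinds of subunit, encoded by Farsa and Farsb, and these differed from each other. Farsb (the beta subunit) had 9.39 FPKM with PRP and 7.33 FPKM in control, a ratio of 1.28 (interval 1.11 to 1.48). Farsa (the alpha subunit) had 6.83 and 7.38 FPKM, a ratio of 0.926 (interval 0.825 to 1.04). The 2 intervals did not overlap, and the level of Farsb over Farsa was 1.37 with PRP and 0.994 in control. Farsb shares 9.47% of its exon length with Sgpp2 on the opposite strand.

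Threonine has a second cytosolic gene, Tarsl2, whose product resembles the main enzyme Tars. Tars had 73.0 FPKM with PRP and 68.2 FPKM in control (ratio 1.07, interval 1.04 to 1.10). Tarsl2, the lowest of the cytosolic set (chromosome 7, 65644898 to 65692091, plus strand), had 1.13 and 1.74 FPKM, and its ratio of 0.649 (interval 0.521 to 0.803) was the smallest of the 38 members. Tars thus stood 64.5-fold above Tarsl2 in the PRP library and 39.2-fold above it in the control library.

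Of the others outside the complex, the cysteine enzyme Cars was higher (30.2 against 25.8 FPKM, ratio 1.17, interval 1.11 to 1.23). The alanine enzyme Aars was above 1 by little (53.3 against 50.5 FPKM, interval 1.02 to 1.09). The glycine enzyme Gars, which serves both compartments, was slightly lower (68.6 against 74.5 FPKM, ratio 0.921, interval 0.882 to 0.962). The intervals of Hars (histidine, 0.879 to 1.02), Yars (tyrosine, 0.987 to 1.15) and Vars (valine, 0.862 to 1.10) included 1. Of the 31-base words in Aars transcripts, 14.4% also occur in transcripts of another gene, chiefly its same-strand neighbour Exosc6. For Iars, in the complex, the share was 14.7%, chiefly with the processed pseudogene Gm4849. How reads that match several genes were counted was not examined.

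**Figure D4:**
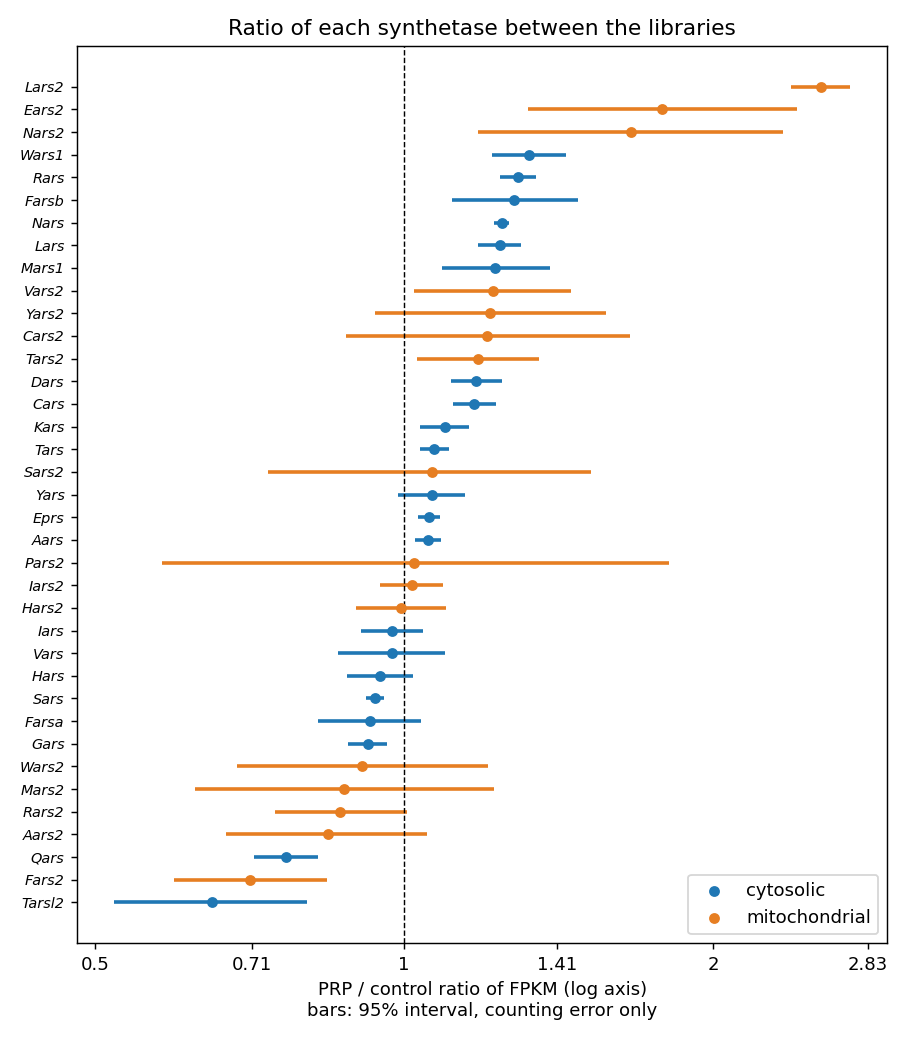
Ratio of PRP to control FPKM (log axis) for 37 of the 38 synthetases in order, blue for cytosolic and orange for mitochondrial members, with bars for the exact 95% interval that covers counting error only. Lars2 stands apart at 2.55 at the top and Tarsl2 lies lowest at 0.649; mitochondrial bars are wider because their read numbers are smaller.

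Lars2, the mitochondrial leucine enzyme, had the largest difference of the family. Lars2 (ENSMUSG00000035202, chromosome 9, 123366927 to 123462666, plus strand) had 15.8 FPKM with PRP and 6.19 FPKM in control, from 7011 and 2343 reads. The ratio was 2.55 (interval 2.38 to 2.72), and the log2 fold change of 1.22 lay at the 98.9th percentile of all genes tested. Lars2 ranked 23 of 38 in the control library and 15 in the PRP library, where it was the most abundant mitochondrial member. Hars2 led the mitochondrial set in the control library. Without Lars2 the mitochondrial set summed to 45.2 FPKM in each library, so the difference in the set's total came from this gene.

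Some ribosomal RNA genes and some genes that share sequence with Lars2 were also unequal between the libraries, and were chosen after their values were seen. AY036118, which lies in a ribosomal RNA repeat, had 149 FPKM with PRP and 68.7 FPKM in control (ratio 2.17). A search of annotated transcripts listed no word of 31 bases shared by AY036118 and Lars2. Whether AY036118 was among the transcripts searched was not checked, so the search does not show that they share no sequence. Gm15564 had 3.62 and 1.35 FPKM (ratio 2.69) and shares 22 such words. The other genes with at least as many were Gm47414 (38 words, 0.927 against 0.395 FPKM), AA474408 (26 words, 1.46 against 0.754 FPKM), 2410004P03Rik (25 words, 1.23 against 0.464 FPKM), Cd38 (25 words, 0.0641 against 0.0602 FPKM) and Gm36618 (35 words, at 0 in both libraries). The mitochondrial ribosomal RNA genes mt-Rnr1 (191 against 134 FPKM, ratio 1.42) and mt-Rnr2 (139 against 129 FPKM, ratio 1.08) were higher by less, and neither shares such a word with Lars2. In all, 0.923% of the 11160 words of Lars2 also occur in transcripts of other genes. Their part in the Lars2 value was not tested.

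Ears2 and Nars2 were the other mitochondrial members with ratios above 1.5, both at low levels. Ears2, the mitochondrial glutamate enzyme (chromosome 7, 122037213 to 122067263, minus strand), had 1.35 FPKM with PRP and 0.756 FPKM in control, from 279 and 133 reads. Its ratio was 1.79 (interval 1.32 to 2.42), and with the pseudocount its log2 fold change was 0.42, under the 1.5-fold limit. Ears2 passed the filter on the mean through its PRP value, as the control value was below 1. Nars2, the mitochondrial asparagine enzyme, had 0.748 and 0.450 FPKM from 209 and 107 reads, a ratio of 1.66 (interval 1.18 to 2.34). Tars2 (3.66 against 3.10 FPKM, interval 1.03 to 1.35) and Vars2 (2.87 against 2.36 FPKM, interval 1.02 to 1.45) were above 1 with intervals that start close to it. Vars2 shares 8.52% of its exon length with the antisense gene Gm20483.

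Among the mitochondrial members that were lower was Fars2. Fars2, which as a single chain loads phenylalanine, had 2.16 FPKM with PRP and 3.05 FPKM in control (ratio 0.707, interval 0.597 to 0.841). It shares 10.7% of its exon length with genes on the opposite strand, Lyrm4 and Nrn1.

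For the other 10 mitochondrial members the interval included 1. The more abundant of them were Hars2 (9.81 against 9.88 FPKM, interval 0.897 to 1.10), Iars2 (9.53 against 9.37 FPKM, interval 0.947 to 1.09) and Rars2 (6.52 against 7.53 FPKM, interval 0.748 to 1.01). For Aars2 (1.66 against 1.97 FPKM), Yars2 (2.34 against 1.93 FPKM) and Sars2 (1.08 against 1.02 FPKM) the ratio was between 0.843 and 1.21. Cars2, Pars2 and Mars2 lay below 1 FPKM in both libraries, and the interval of Pars2, from 0.581 to 1.81, shows how little 60 and 50 reads resolve. Hars and Hars2 are neighbours on opposite strands whose spans overlap by 198 bases, and Iars2 shares 24.2% of its exon length with opposite-strand genes, mainly Rab3gap2.

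Promoter sequence was searched next, because several cytosolic synthetase genes are known to carry the composite C/EBP-ATF response element through which ATF4 acts. RefSeq windows of 300 bases (250 before and 50 after the annotated start, GRCm38.p6) were at hand for 28 members, 14 cytosolic and 14 mitochondrial. The members with no entry included Nars, Rars, Lars, Hars, Cars, Wars1, Vars, Hars2 and Pars2. The element TGATGNAA was read on both strands and was found in 5 of the 14 cytosolic windows (35.7%) and in 0 of the 14 mitochondrial windows, where 4.51% of the 27025 genes in the table have it. The E-box CACGTG was found in 4 cytosolic windows (28.6%; Aars, Farsb, Iars and Tars) and in 1 mitochondrial window (7.14%; Ears2), against 8.09% of all genes. The core of the interferon-stimulated response element, GAAANNGAA, was found in 1 cytosolic window, that of Qars, and in no mitochondrial window, against 9.76% of all genes. No match of an element overlapped a match of another in these windows. Matches to TGATGNAA follow, 1 for each of the 5 genes, each with 15 bases on either side, 5′ to 3′ on the strand of the gene, with the match in capitals. A match read on the other strand appears as the reverse complement of the element.

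Aars, 9 bases after the start, chr8:111033836-111033873, plus strand: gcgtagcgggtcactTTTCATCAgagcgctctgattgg
Gars, 30 bases before the start, chr6:55037956-55037993, plus strand: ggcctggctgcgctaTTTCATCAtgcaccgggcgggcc
Iars, 7 bases after the start, chr13:49682122-49682159, plus strand: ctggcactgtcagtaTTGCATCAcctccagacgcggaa
Tars, 15 bases before the start, chr15:11399651-11399688, minus strand: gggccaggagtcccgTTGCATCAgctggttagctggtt
Yars, 3 bases after the start, chr4:129189891-129189928, plus strand: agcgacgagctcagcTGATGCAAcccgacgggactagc

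These are shown because no other gene among the 28 windows had a match to the element. The 5 genes with a match had ratios between 0.921 (Gars) and 1.07 (Tars), with a median of 1.05. The 9 cytosolic genes with a window and no match had ratios between 0.649 (Tarsl2) and 1.28 (Farsb), with a median of 1.06. A match of letters is a description and does not show that a factor binds there.

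Other genes of the ATF4 response had a higher median than the synthetases, a difference that was not tested, and they varied widely. The list of 20 genes has 21 entries in the files, since Ddit3 is listed under 2 identifiers, and 20 of these entries were tested. Of these, 19 were above their control value (50.9% of all genes were), 7 of them by at least 1.5-fold (6.15% of all genes), with a median log2 fold change of 0.36. Here 14 intervals lay above 1 (26.1% of all genes) and 1 below, and 5 included 1, those of Nupr1, Shmt2, Psat1, Sesn2 and Ddit4, which are named after their values were seen. Atf4 itself, singled out after its values were seen, had 104 FPKM with PRP and 72.4 FPKM in control (ratio 1.44, interval 1.37 to 1.51). The cystine transporter Slc7a11 had 7.98 against 0.766 FPKM (ratio 10.4, interval 8.96 to 12.2), its heavy chain Slc3a2 had 94.1 against 43.8 FPKM (ratio 2.15), and Ddit3, the pro-apoptotic factor CHOP, had ratios of 1.84 and 1.77 in its 2 entries. Slc7a11 passed the filter on the mean through its PRP value, as its control value was below 1. Among the cytosolic synthetases, 17 of the 21 lay within 25% of their control value and 11 within 10%, by plain ratio. No share of all genes is given on that measure. On the log2(FPKM + 1) scale, 30.3% of all genes tested had at least 25% more in either library than in the other. Most genes tested thus lay within that limit as well.

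**Figure D5:**
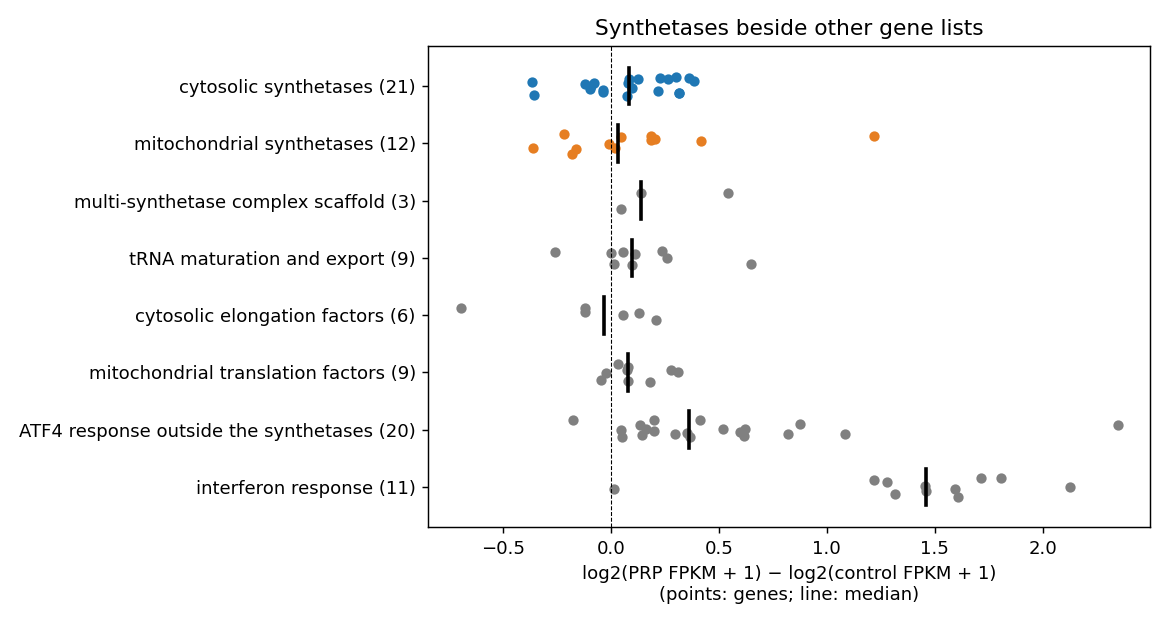
Log2 fold change of PRP over control on the log2(FPKM + 1) scale for each tested gene (points) and the median (black line) of 8 gene lists, with the number of tested entries in brackets. The cytosolic and mitochondrial synthetases have medians of 0.08 and 0.03, whereas the ATF4 and interferon lists have medians of 0.36 and 1.46.

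Further lists of tRNA charging and translation genes had small median changes as well, though single genes in them differed by more. Of the 9 genes of tRNA maturation and export, 8 were above control (50.9% of all genes) and 4 had an interval above 1 (26.1% of all genes), with a median of 0.10. Tsen54, a subunit of the tRNA splicing endonuclease, led them with 2.94 against 1.51 FPKM (ratio 1.94, interval 1.43 to 2.63), while another subunit, Tsen34, was lower (13.0 against 15.8 FPKM, ratio 0.825). Trnt1, which adds the CCA end, had a ratio of 1.21 (interval 1.11 to 1.32). Of 6 cytosolic elongation factor genes, 3 intervals lay above 1 (Eef1b2, Eef1d and Eef2) and 3 below, with a median of -0.03. Among all genes with an interval, 26.1% lay above 1 and 26.1% below. Eef1a2, a form of the tRNA-carrying factor typical of muscle, differed most, with 1.70 against 3.36 FPKM (ratio 0.506), and the exchange subunits Eef1d and Eef1b2 had ratios of 1.16 and 1.10.

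In mitochondria, the 9 translation factor genes had a median of 0.08, with 3 intervals above 1 (26.1% of all genes) and 6 that included it. Mtrf1, Tsfm and Mtif3 had ratios of 1.34, 1.28 and 1.15. The amidotransferase that completes glutamine tRNA after EARS2, together with the formylase Mtfmt, had a median of -0.05 over 4 genes. Of its subunits, Gatc was higher (13.1 against 10.9 FPKM, ratio 1.20), whereas the intervals of Gatb (0.705 to 1.07) and Qrsl1 (0.633 to 1.14) included 1. The protein-coding RNAs of the mitochondrial genome, which are what these enzymes help translate, were below control in 13 of 13 cases, with ratios from 0.484 to 0.672. Of all 13401 genes tested, 6586 were below control. The mitochondrial synthetases had a median ratio of 1.02 over all 17, and the difference from these RNAs was not tested.

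Editing enzymes, which clear wrongly loaded tRNA, had a median of 0.02 over 5 genes. Among them the D-aminoacyl-tRNA deacylases Dtd2 (8.02 against 6.41 FPKM, interval 1.09 to 1.44) and Dtd1 (ratio 1.18, interval 0.994 to 1.40) stood highest, and Aarsd1 had a ratio of 0.929. The selenocysteine pathway had a median of -0.09 over 5 genes. Secisbp2, which binds the selenocysteine signal in mRNA, was lower (ratio 0.786, interval 0.680 to 0.911). The interval of Eefsec (0.923 to 1.49) included 1, and so did that of Sepsecs (1.12 against 1.40 FPKM), though only just.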

How the data were processed

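Mouse FAPs were profiled by RNA-seq with 1 library per group. Per the labels and the study's methods, RNA was extracted with TRIzol and built into stranded mRNA libraries. The authors trimmed reads with fastp 0.23.4, aligned them to mm10 with STAR 2.5.3a and counted them with featureCounts. The deposited values are FPKM, computed by the authors for 44291 genes; the conversion and annotation release are not given in the sources used here. GENCODE M21 (GRCm38) supplied coordinates and exon lengths. Read totals were recovered as the totals for which FPKM times exon length is whole within 0.001 reads (96.1% and 96.2% of genes with a length). Even numbers were in excess (79.3% and 80.3% of genes with up to 8 reads), so intervals are exact Clopper-Pearson 95% intervals on reads divided by 2. PCR duplicates were not considered, and no count test was run. Fold changes used a pseudocount of 1 and a minimum mean FPKM of 1. The members and gene lists were chosen with earlier results of these data known. By the rule, every member was to be named, with the 3 largest changes of each pathway list; 1 member and 1 sequence are not reported here by name, though the counts include them. Alternatives covered pseudocount, filter, scaling, fold limit and membership. Protein sequences were not used here. The procedures were tested on simulated data. Python 3.11.15, NumPy 2.4.6, pandas 2.3.3, SciPy 1.17.1 and matplotlib 3.10.9 were used.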

Additional observations from a re-analysis of the deposited data

How the results depend on the processing

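No paired analysis was possible because the PRP and control groups hold 1 library apiece, and no library could be left out for the same reason. Of the 33 members tested, 20 were above control. Under the alternatives tried this count ranged from 15 of 24 at a minimum mean FPKM of 5 to 23 of 38 without a filter. It thus changed along with the number of members tested. The cytosolic median ranged from 0.06 to 0.09 and the mitochondrial median from 0.01 to 0.05, and no median changed sign. The number of members past 1.5-fold was 2 (Lars2 and Ears2) with a pseudocount of 0.1, when the libraries were scaled to the same total, and when that total left out mitochondrial-genome genes and the 50 most abundant genes. The share of all genes past 1.5-fold was 16.4%, 14.5% and 15.3% under these settings in turn, against 10.7% in the main setting. The number of members was 7 at a limit of 25% (30.3% of all genes), namely Ears2, Fars2, Lars2, Qars, Rars, Tarsl2 and Wars1. It was 0 without Lars2, an alternative chosen after seeing the data. The log2 fold change of Lars2 ranged from 0.89 with a pseudocount of 5 to 1.33 with a pseudocount of 0.1. These alternatives gave 222 values of single members. Of these, 218 differed from the reported value by less than the distance from middle to end of the member's log2 counting interval. A change of filter alone leaves a member's value as it was, and centring shifts all members by the same amount. The count of 218 is therefore partly fixed in advance. Iars2 was the only member whose sign changed. Depth limits the mitochondrial set most, and the spread between cultures cannot be judged from 1 library per group.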
